A study of Mus musculus with 4 samples.

Results

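The 10 genes described here are components of the ribbon synapse: Ctbp2, Bsn, Pclo, Rims1, Rims2, Cacna1f, Cacna2d4, Cabp4, Cplx3 and Cplx4. They were taken by symbol from the 31053 genes of the deposited tables, and all 10 were found. Their RNA was counted in single nuclei of mouse retina by the 10x droplet method, which counts captured molecules by their identifier tags (UMIs). The 5-month group had 2 libraries, with no genotype in the labels, and the 2.5-month group had 2, labelled wild type. Each library came from the left eye of 1 numbered donor, so the libraries of an age are separate animals. No treatment or transgene is named for either age. Parts of the series description speak of human tissue and of an eye bank, and may not concern these mice.

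Most synapses release transmitter in brief bursts after an action potential. Photoreceptors and bipolar cells of the retina instead release glutamate continuously and grade it with the membrane potential, from active zones that carry an electron-dense ribbon with tethered vesicles. The ribbon is built mainly of RIBEYE, a long product of the Ctbp2 gene. Bassoon (Bsn) anchors it and piccolo (Pclo) is a related scaffold protein, RIM proteins (Rims1, Rims2) dock vesicles next to calcium channels, and an L-type channel (pore subunit Cacna1f, accessory subunit Cacna2d4, regulator Cabp4) lets in the calcium that drives release. Complexins (Cplx3, Cplx4) clamp and support the final fusion step. Loss of Cacna1f, Cacna2d4 or Cabp4 function causes inherited disorders of photoreceptor transmission in people. Amacrine, ganglion and horizontal cells and Müller glia have no ribbons and served as the non-ribbon classes.

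Of 32326 barcodes, 30839 nuclei were kept and 27822 fell into named classes, each standing for nuclei like that type by its marker genes. The classes compared held 8998 rods, 3206 cones, 2646 bipolar cells, 5534 amacrine cells, 1733 ganglion cells, 322 horizontal cells and 3282 Müller glia over the 4 libraries. Bipolar and amacrine clusters got a subclass name if at least 3 of its markers were raised, and some amacrine clusters got none. An OFF cone bipolar cluster of 379 nuclei had only Grik1, Col11a1 and Cabp5 of its subclass markers raised, so subclass names are less certain than class names. The libraries held 28042269 and 36320257 UMIs at 5 months and 19608067 and 28723257 at 2.5 months. UMIs were summed per class and library and given as CPM, that is, scaled to the same total in every sum. The rod sums held 1229048 to 4648942 UMIs and the horizontal cell sums 207277 to 931640, so horizontal cell values carry the most counting error of the 7. Rods lay in 2 clusters with medians of 1403 and 1044 UMIs per nucleus; the shallower one held 465 of 898 and 501 of 1869 rods at 5 months, and 2306 of 3296 and 1024 of 2935 at 2.5 months. Libraries shared 0.0809% to 0.337% of barcodes. Doublets were called in 8.92% and 7.87% of nuclei at 5 months but in 0.0406% and 0.0135% at 2.5 months, so that doublets were in effect not removed from the 2.5-month libraries. Between 5 and 2.5 months the software version also differed, so version and age cannot be told apart.

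RNA of rod marker genes, called free rod RNA here, was found in every other class and bears on each member that rods express. The summed level of 10 rod marker genes was, as a mean of the 4 libraries, 37.7% of the rod level in cones, 15.1% in bipolar cells, 15.6% in Müller glia, 10.0% in amacrine cells, 6.35% in horizontal cells and 4.69% in ganglion cells. Its median over the 4 non-ribbon classes was 8.45% and 5.30% at 5 months, against 10.6% and 8.31% at 2.5 months. A member at or below the same share of its rod level in a class is called at background there. The share was not calibrated for the members, so such a level does not show that a class makes none. In Müller glia, Cacna1f and Cacna2d4 stood at only 0.22 and 0.27 times the share. Whether cones make part of the rod marker RNA themselves was not tested, so the 37.7% in cones need not all be free.

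**Figure D1:**
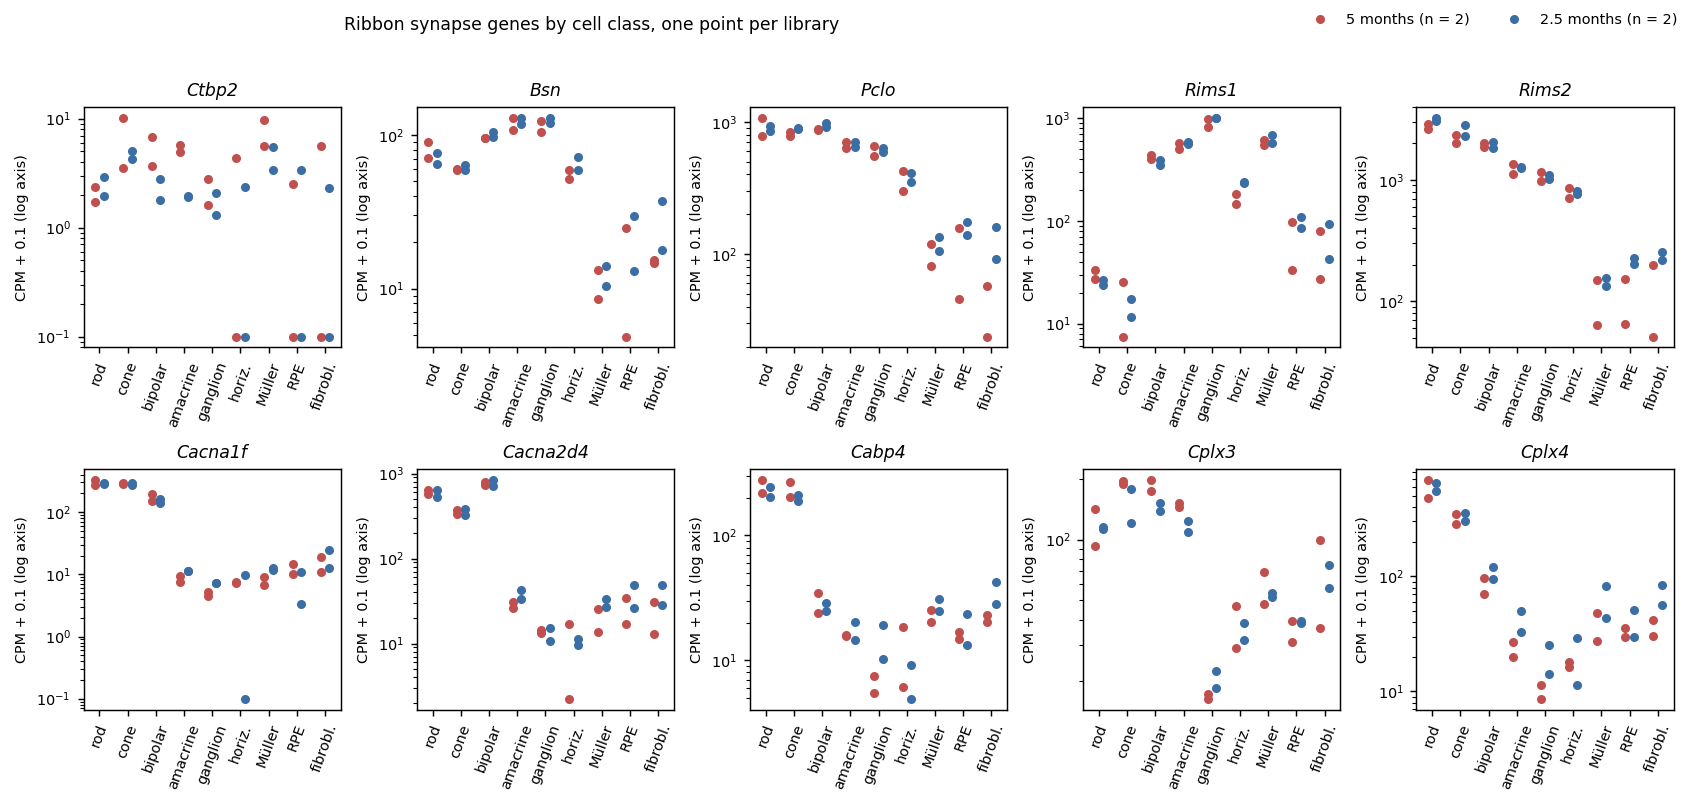
Level of each gene in CPM + 0.1 on a logarithmic axis, for 9 classes, with 1 point per library (5 months left, 2.5 months right). Cacna1f, Cacna2d4, Cabp4 and Cplx4 stand highest in photoreceptors or bipolar cells, whereas Rims1 is lowest in rods and cones (27.6 and 15.4 CPM on average).

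The Ctbp2 gene (ENSMUSG00000030970, chr7:132987563-133124354 on the minus strand of GRCm38) gives 2 kinds of protein from different starts: the corepressor CtBP2, and RIBEYE, which shares its end but has a long domain of its own. In GENCODE M21 the transcript with the longest Ctbp2 reading frame, 988 codons, starts at 133015248, inside the gene, while the transcript with a frame of 445 codons starts upstream at 133123367. RefSeq start windows (250 bases before to 50 after a start, GRCm38.p6) were matched for 6 of the 10 members: Ctbp2, Bsn, Pclo, Rims1, Cplx3 and Cacna1f. The Ctbp2 windows are shown because the start inside the gene, next to that of the long frame, belongs to the ribbon product and the other RefSeq start lies upstream of it. The window of Cacna1f is shown too, the matched member with the largest log2 fold changes of ribbon-bearing over non-ribbon classes. Capitals mark the letters TAATCC or its reverse complement GGATTA, the core bound by CRX and OTX2, which are transcription factors of photoreceptors and bipolar cells. They were searched on both strands.
Ctbp2, start of the long frame, chr7:133015198-133015497, minus strand: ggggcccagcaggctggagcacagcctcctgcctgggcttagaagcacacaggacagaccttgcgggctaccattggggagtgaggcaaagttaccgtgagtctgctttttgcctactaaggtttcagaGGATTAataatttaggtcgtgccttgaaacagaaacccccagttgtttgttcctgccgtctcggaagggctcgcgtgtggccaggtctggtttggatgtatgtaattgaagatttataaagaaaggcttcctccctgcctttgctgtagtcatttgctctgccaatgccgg
Ctbp2, other RefSeq start, chr7:133081811-133082110, minus strand: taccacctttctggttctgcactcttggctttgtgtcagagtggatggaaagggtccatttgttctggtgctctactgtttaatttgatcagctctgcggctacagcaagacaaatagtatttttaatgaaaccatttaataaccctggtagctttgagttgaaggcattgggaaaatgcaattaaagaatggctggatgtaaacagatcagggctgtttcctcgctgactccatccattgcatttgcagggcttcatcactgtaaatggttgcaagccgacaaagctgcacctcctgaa
Cacna1f, chrX:7606853-7607152, plus strand: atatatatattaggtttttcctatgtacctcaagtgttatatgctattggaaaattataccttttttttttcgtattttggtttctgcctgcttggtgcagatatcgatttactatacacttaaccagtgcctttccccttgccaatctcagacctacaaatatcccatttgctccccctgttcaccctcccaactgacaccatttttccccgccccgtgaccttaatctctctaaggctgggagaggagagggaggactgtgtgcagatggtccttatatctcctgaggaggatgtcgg
Of the 7 windows of members, only that of the long Ctbp2 frame held the letters, at position -121 relative to its start. They were in 2320 of all 32851 windows (7.1%). A match is a description of the sequence, and its absence says nothing of binding elsewhere.

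Ctbp2 counts were close to 0 in every class, ribbon-bearing ones included. All rods together had 27 Ctbp2 UMIs, cones 48, bipolar cells 28, amacrine cells 102, ganglion cells 34, horizontal cells 5 and Müller glia 64. Rods had 1.63 and 2.24 CPM at 5 months and 1.85 and 2.80 CPM at 2.5 months, and cones had 3.44 and 10.1 CPM at 5 months and 4.93 and 4.19 CPM at 2.5 months. An annotated transcript of Fgfr2, a growth factor receptor gene, spans chr7:130162451-133123350 on the same strand and encloses nearly all of Ctbp2; it is 1 of 27 Fgfr2 transcripts. Fgfr2 itself was at 560.0 ± 167 CPM in rods (SD, n = 4), and its class means ran from 427 CPM in ganglion cells to 1009.5 CPM in horizontal cells. How reads in both genes were assigned is not given in the sources used here, so neither count can be read as the level of its gene, and the part of the overlap was not tested. Counts per gene also do not separate RIBEYE from CtBP2. The test values of Ctbp2 are therefore given for completeness: it was called lower in rods than in cones (log2 fold change -1.24, SE 0.39, adjusted p = 0.0103) and higher in cones than in the non-ribbon classes (log2 fold change 0.72, SE 0.32, adjusted p = 0.0450), and the second call was lost in 7 of 12 alternatives, RLE scaling (adjusted p = 0.0588) and DESeq2 (0.0884) among them.

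Of the scaffold genes, Pclo and Bsn were found both in cells with ribbons and in neurons with conventional synapses. Pclo (ENSMUSG00000061601, chr5:14514918-14863459) was modestly higher with ribbons. Rods had 779 and 1074 CPM at 5 months and 922 and 847 CPM at 2.5 months. Cones had 776 and 844 CPM at 5 months and 885 and 894 CPM at 2.5 months, and bipolar cells had 877 and 865 CPM at 5 months and 909 and 974 CPM at 2.5 months. It averaged 672 ± 41.1 CPM in amacrine cells, 608 ± 43.8 in ganglion cells, 372 ± 56.8 in horizontal cells and 109.9 ± 22.4 in Müller glia (SD, n = 4 each). All 4 libraries of rods, cones and bipolar cells lay above all 4 of each non-ribbon class. Among amacrine cells the GABAergic ones, at 688 to 798 CPM, overlapped with rods and cones. In edgeR's quasi-likelihood test, with library as a block and Benjamini-Hochberg adjustment over 14675 genes, Pclo was higher than the mean of the 4 non-ribbon classes in rods (log2 fold change 1.03, SE 0.13, adjusted p = 1.32e-09), cones (1.02) and bipolar cells (1.23). Against the 3 neuron classes alone, a setting added after the data were seen, the log2 fold changes were 0.42, 0.41 and 0.62, and all 3 passed (adjusted p = 0.00691, 0.00904 and 0.000168). Reads of Pclo and of Gm26954, an antisense gene inside it, cannot be told apart without strand, and Gm26954 was at 1209 CPM in rods.

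Bsn (ENSMUSG00000032589, chr9:108096022-108190384) was lower in photoreceptors than in amacrine and ganglion cells. Rods had 89.5 and 70.7 CPM at 5 months and 64.4 and 75.9 CPM at 2.5 months. Cones had 58.9 and 60.2 CPM at 5 months and 63.3 and 59.2 CPM at 2.5 months, and bipolar cells had 95.0 and 95.3 CPM at 5 months and 97.6 and 105 CPM at 2.5 months. It averaged 121 ± 10.2 CPM in amacrine cells, 119 ± 10.7 in ganglion cells, 60.4 ± 8.70 in horizontal cells and 11.5 ± 2.57 in Müller glia (SD, n = 4 each). All amacrine libraries lay above those of rods, cones and bipolar cells, and all ganglion libraries above those of rods and cones, with an overlap with bipolar cells. Bsn did not pass in rods (0.08, SE 0.09) or cones (-0.10, SE 0.10) against the non-ribbon classes and was called higher in bipolar cells (log2 fold change 0.73, SE 0.09, adjusted p = 5.25e-10). Against the 3 neuron classes alone, without Müller glia, the log2 fold change was -0.73 in rods, -0.91 in cones and -0.08 in bipolar cells (adjusted p = 4.30e-10, 1.11e-11 and 0.496). Both rods (-0.66, SE 0.10) and cones (-0.83, SE 0.10) were lower than bipolar cells. The call in bipolar cells therefore rests on Müller glia, where Bsn was 15.5% of the rod level beside free rod RNA of 15.6%.

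The RIM genes divided the classes in opposite ways. Rims2 (ENSMUSG00000037386, chr15:39198261-39684372) was higher with ribbons. Rods had 2877 and 2605 CPM at 5 months and 3046 and 3252 CPM at 2.5 months. Cones had 2356 and 2002 CPM at 5 months and 2317 and 2838 CPM at 2.5 months, and bipolar cells had 2028 and 1866 CPM at 5 months and 1829 and 2033 CPM at 2.5 months. It averaged 1251 ± 93.6 CPM in amacrine cells, 1067 ± 77.0 in ganglion cells and 785 ± 63.7 in horizontal cells, and 126 ± 42.5 in Müller glia, where it was 4.21% of the rod level and below the free rod RNA (SD, n = 4 each). Taken whole, the ribbon-bearing classes did not overlap with the non-ribbon classes. Of the subclasses, rod bipolar cells (1608 ± 154 CPM at 2.5 months) overlapped with GABAergic amacrine cells (1561 ± 62.1 CPM at 2.5 months; SD, n = 2 each). Rims2 passed in rods (log2 fold change 1.97, SE 0.13, adjusted p = 7.65e-18), cones (1.76) and bipolar cells (1.60), and against the 3 neuron classes alone the log2 fold changes were 1.16, 0.95 and 0.79.

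Rims1 (ENSMUSG00000041670, chr1:22286251-22805994 on the minus strand) was low in photoreceptors. Rods had 33.4 and 26.8 CPM at 5 months and 23.7 and 26.5 CPM at 2.5 months, and cones had 25.5 and 7.38 CPM at 5 months and 11.5 and 17.2 CPM at 2.5 months. Bipolar cells had 442 and 402 CPM at 5 months and 347 and 393 CPM at 2.5 months, and ganglion cells 991 and 813 CPM at 5 months and 999.9 and 1012 CPM at 2.5 months. Amacrine cells averaged 556 ± 40.5 CPM, Müller glia 609 ± 60.4, horizontal cells 201 ± 44.4 and fibroblasts 60.7 ± 31.1 (SD, n = 4 each). Rod and cone libraries lay below every bipolar, amacrine, ganglion, horizontal and Müller library. Rims1 fell below the non-ribbon classes in rods (log2 fold change -4.55, SE 0.21, adjusted p = 1.37e-24) and in cones (log2 fold change -5.25, SE 0.23, adjusted p = 2.88e-25). In bipolar cells its call as lower (log2 fold change -0.44, SE 0.15, adjusted p = 0.0107) was lost with DESeq2 (adjusted p = 0.0704), without the second 2.5-month library (0.0680) and without the library block (0.123). The call of rods above cones (log2 fold change 0.70, SE 0.28, adjusted p = 0.0445) was lost in 6 of 12 alternatives, among them without the second 5-month library (log2 fold change 0.40).

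Among bipolar cells the low Rims1 level was found in 1 of the types. Rod bipolar cells, which receive rod input, had 81.0 and 79.2 CPM at 5 months and 125 and 113 CPM at 2.5 months. ON cone bipolar cells had 437 and 422 CPM at 5 months and 383 and 423 CPM at 2.5 months, and OFF cone bipolar cells 749 and 587 CPM at 5 months and 542 and 619 CPM at 2.5 months. The 4 rod bipolar libraries lay below all 8 cone bipolar values, and Rims1 was lower in rod than in cone bipolar cells (log2 fold change -2.26, SE 0.11, adjusted p = 5.73e-16, edgeR over 10022 genes). Amacrine cells also varied, with 736 ± 61.2 CPM in GABAergic and 320.5 ± 36.0 CPM in glycinergic cells (SD, n = 4 each); this pair was not tested.

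**Figure D2:**
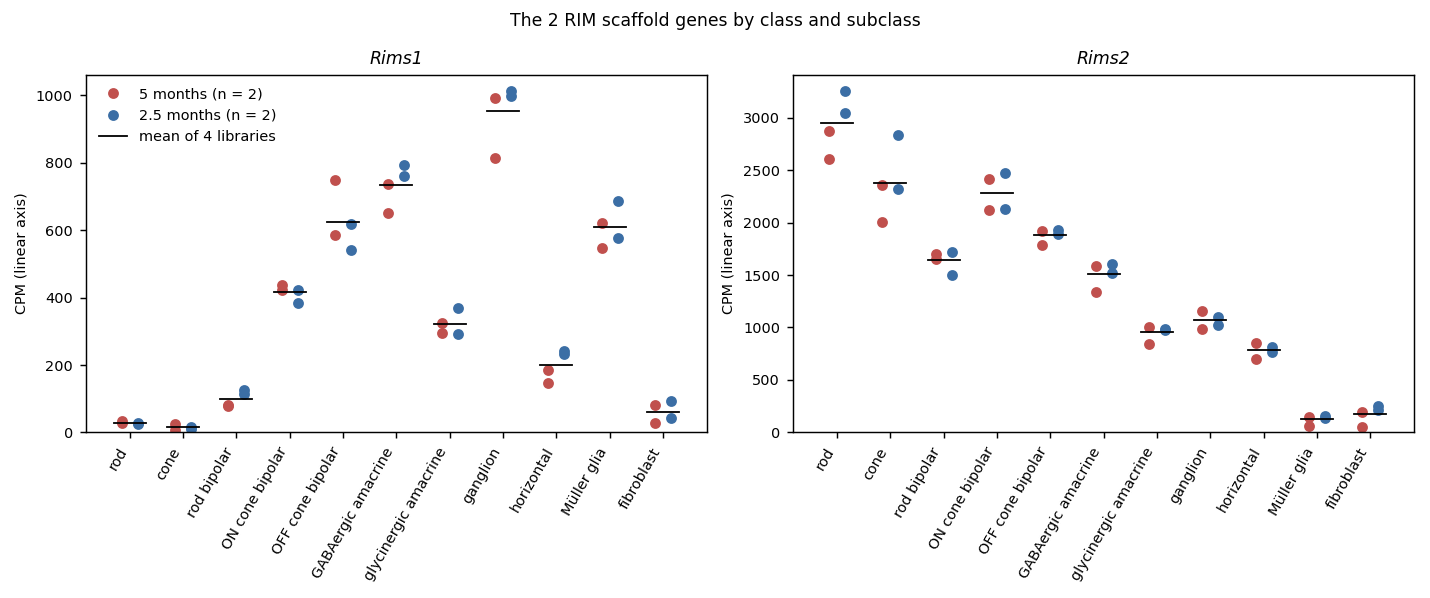
Rims1 (left) and Rims2 (right) in CPM on linear axes in 11 classes and subclasses, with 1 point per library (5 months left, 2.5 months right) and a line at the mean of 4 libraries. Rims1 is lowest in cones, rods and fibroblasts and then in rod bipolar cells (99.5 CPM), while Rims2 is highest in rods (2945 CPM) and lowest in Müller glia (126 CPM).

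The calcium channel genes separated ribbon-bearing from other classes. Cacna1f (ENSMUSG00000031142, chrX:7607083-7635196 on the plus strand), the pore subunit, stood far above the other classes in all 3. Rods had 268 and 330.2 CPM at 5 months and 289 and 280.1 CPM at 2.5 months. Cones had 283 and 296 CPM at 5 months and 293 and 268 CPM at 2.5 months, and bipolar cells had 149.5 and 199 CPM at 5 months and 165 and 143 CPM at 2.5 months. In the non-ribbon classes its mean lay between 5.97 CPM in ganglion cells and 9.94 CPM in Müller glia, which is 2.06% and 3.46% of the rod level and under the free rod RNA of those classes. In 1 horizontal cell library, the second at 2.5 months, Cacna1f had 0 UMIs, which allows up to 6.78 CPM (3 UMIs, counting error only). The groups did not overlap: the lowest bipolar library had 143 CPM and the highest non-ribbon library 12.4 CPM. Cacna1f was higher than in the non-ribbon classes in rods (log2 fold change 4.94, SE 0.10, adjusted p = 1.37e-38), cones (5.01, SE 0.10) and bipolar cells (4.32, SE 0.11). With free rod RNA in the comparison classes, these folds are measured against background. Rods and cones differed by -0.07 (SE 0.09), which did not pass, and both were higher than bipolar cells (0.62 and 0.69).

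Cacna2d4 (ENSMUSG00000041460, chr6:119236526-119352407), which encodes the accessory subunit that helps place the channel in the membrane, was highest in rod bipolar cells. Those had 1014 and 982 CPM at 5 months and 826 and 1010.1 CPM at 2.5 months. Rods had 644 and 571 CPM at 5 months and 537 and 648 CPM at 2.5 months, and cones had 376 and 334 CPM at 5 months and 327 and 388 CPM at 2.5 months. ON cone bipolar cells averaged 761 ± 80.3 CPM and OFF cone bipolar cells 634 ± 30.2 CPM (SD, n = 4 each). The non-ribbon means ran from 9.98 CPM in horizontal cells to 33.1 CPM in amacrine cells, again under the free rod RNA. Cone libraries lay below all rod libraries, rod libraries overlapped with OFF cone bipolar ones, and rod bipolar libraries overlapped with ON cone bipolar ones. The log2 fold change was 5.31 in bipolar cells, 4.72 in rods and 4.08 in cones against the non-ribbon classes, 0.64 (SE 0.11) in rods over cones and 0.53 (SE 0.07) in rod over cone bipolar cells, and all 5 passed.

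Cabp4 (ENSMUSG00000024842, chr19:4135423-4144033 on the minus strand), a calcium-binding protein that shifts the opening of the channel, was highest in photoreceptors in these nuclei. Rods had 217 and 279 CPM at 5 months and 244 and 202 CPM at 2.5 months, and cones, which overlapped with them, had 205 and 267 CPM at 5 months and 211 and 188 CPM at 2.5 months. Bipolar cells had 34.7 and 23.8 CPM at 5 months and 28.4 and 24.7 CPM at 2.5 months, and the non-ribbon means ran from 9.53 CPM in horizontal cells to 25.3 CPM in Müller glia. The bipolar mean was 12.1% of the rod level beside free rod RNA of 15.1%, and whether bipolar cells make Cabp4 was not tested. The test called Cabp4 higher in bipolar cells than in the non-ribbon classes (log2 fold change 0.85, SE 0.20, adjusted p = 0.000353). It was higher in rods and in cones than in bipolar cells (2.85 and 2.86, SE 0.16 and 0.16), and rods and cones differed by -0.005 (SE 0.12). Gpr152 overlaps Cabp4 on the other strand and was at 64.8 CPM in rods and 94.9 CPM in cones, so the counts of both are uncertain if strand was not used.

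**Figure D3:**
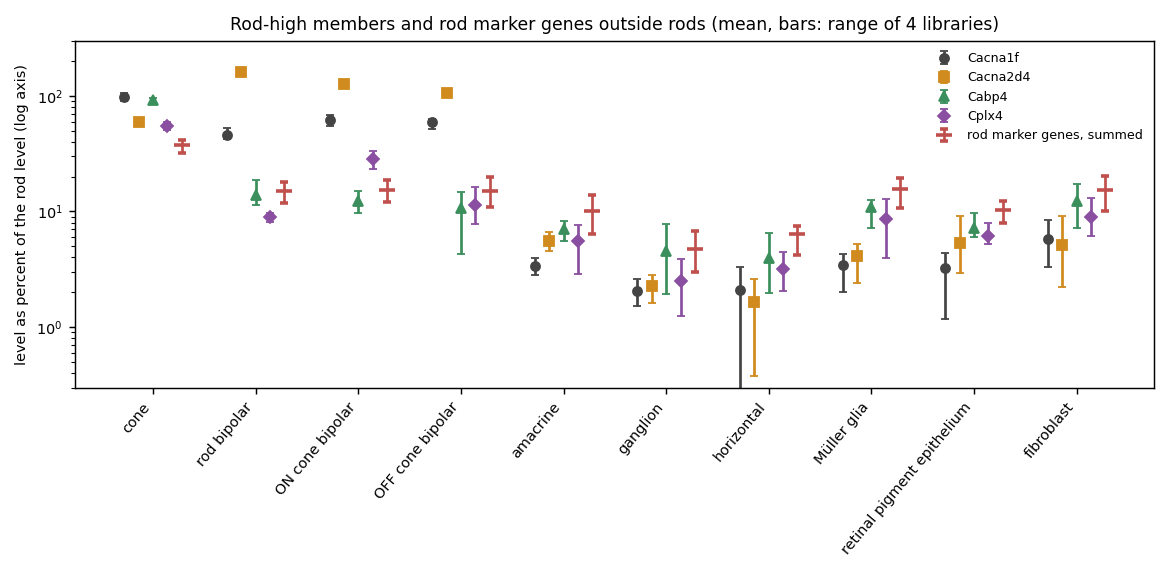
Level of Cacna1f, Cacna2d4, Cabp4 and Cplx4 in 10 classes as percent of the level in rods, on a logarithmic axis, beside the summed rod marker genes; symbols are means and bars the range of 4 libraries, and 1 horizontal cell library had no Cacna1f UMI, so its bar leaves the axis. Outside cones and bipolar cells all 4 means lie below the rod marker share. Cabp4 does so in each bipolar group too, and Cplx4 in rod and OFF cone bipolar cells.

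The complexin genes differed in where they were found. Cplx4 (ENSMUSG00000024519, chr18:65955722-65970237) was highest in photoreceptors and, among the bipolar groups, in ON cone bipolar cells. Rods had 481 and 689 CPM at 5 months and 648 and 553 CPM at 2.5 months and cones 284 and 349 CPM at 5 months and 354 and 301 CPM at 2.5 months, with all rod libraries above all cone libraries (rods minus cones 0.77, SE 0.13). ON cone bipolar cells had 112 and 172 CPM at 5 months and 214 and 183 CPM at 2.5 months, or 28.6% of the rod level, above their free rod RNA of 15.2%. OFF cone bipolar cells averaged 66.9 ± 25.6 CPM and rod bipolar cells 52.8 ± 7.99 CPM (SD, n = 4 each). These were 11.3% and 8.94% of the rod level, or 0.75 and 0.59 times their free rod RNA share. Rod bipolar cells were lower than cone bipolar cells (log2 fold change -1.08, SE 0.14, adjusted p = 3.82e-07). Against the non-ribbon classes Cplx4 was higher in rods (4.27, SE 0.12), cones (3.50, SE 0.13) and bipolar cells (1.86, SE 0.16). As percent of the rod level it stood at 54.7% in cones, where the rod marker genes stood at 37.7%, not all of it necessarily free. Over all bipolar cells it stood at 16.1% beside free rod RNA of 15.1%, or 1.07 times that share. In the non-ribbon classes Cplx4 stood at 0.50 to 0.55 times their share, below the bipolar ratio. What part of the bipolar value is free RNA was not tested.

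Cplx3 (ENSMUSG00000039714, chr9:57599992-57606281) was not limited to cells with ribbons. Rods had 142 and 92.6 CPM at 5 months and 112 and 115 CPM at 2.5 months. Cones had 188 and 195 CPM at 5 months and 178 and 121 CPM at 2.5 months, and bipolar cells had 174 and 197 CPM at 5 months and 151 and 138 CPM at 2.5 months. Glycinergic amacrine cells, which use conventional synapses, had 264 and 288 CPM at 5 months and 211 and 177 CPM at 2.5 months. GABAergic amacrine cells averaged 83.0 ± 10.6 CPM, Müller glia 55.8 ± 9.21, horizontal cells 36.5 ± 8.0 and ganglion cells 18.4 ± 2.62 (SD, n = 4 each). Glycinergic values overlapped with those of cones and bipolar cells and lay above all rod libraries; these pairs were not tested. Cplx3 passed as higher than the non-ribbon classes in rods (0.99), cones (1.63) and bipolar cells (1.71), and it was lower in rods than in cones (log2 fold change -0.65, SE 0.11, adjusted p = 2.47e-06) and than in bipolar cells (-0.72). The Müller glia mean was 48.4% of the rod level, above the free rod RNA there. Fibroblasts were at 67.0 CPM (56.3% of the rod level), melanocytes at 45.6 (39.9%) and retinal pigment epithelium at 37.1 (32.4%). Free RNA of classes other than rods was not estimated, so the Müller glia value may be background.

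Counted over the list, 7 of the 10 genes were called higher and 1 (Rims1) lower in rods than in the non-ribbon classes, where 33.9% and 34.3% of the 14675 genes tested were called. In cones 8 were higher and 1 (Rims1) lower, beside 32.3% and 31.4% of all genes. In bipolar cells 8 were higher and 1 (Rims1) lower, beside 25.4% and 22.3%. Against the 3 neuron classes alone the counts were 7 and 2 in rods, 8 and 2 in cones and 7 and 1 in bipolar cells, with Bsn the second gene called lower in rods and cones. Beside these counts, 18 of 18 genes of the free rod RNA list were called higher in rods, 18 of 18 in cones and 17 of 18 in bipolar cells, with median log2 fold changes of 3.13, 1.49 and 0.82, and their part in the counts for cones and bipolar cells was not tested. The 8 genes called higher in bipolar cells include Cabp4, which lay below the free rod RNA share there, and Cplx4, which was close to that share. The median log2 fold changes of the 10 were 1.5, 1.70 and 1.41, beside -0.02, -0.01 and 0.01 over all genes. Between rods and cones 3 were higher (Rims1, Cacna2d4, Cplx4) and 2 lower (Ctbp2, Cplx3) in rods, beside 18.9% and 19.1% of all genes, and without the second 5-month library 1 was lower. Between rods and bipolar cells 3 were higher (Cacna1f, Cabp4, Cplx4) and 4 lower (Bsn, Rims1, Cacna2d4, Cplx3) in rods, beside 27.5% and 28.3%, and cones were higher than bipolar cells in 3 (Cacna1f, Cabp4, Cplx4) and lower in 3 (Bsn, Rims1, Cacna2d4), beside 23.7% and 24.4%. Of the 9 genes tested between rod and cone bipolar cells, 1 (Cacna2d4) was higher and 4 (Rims1, Rims2, Cacna1f, Cplx4) were lower in rod bipolar cells, beside 13.5% and 16%, and the calls of Rims2 (-0.26) and Cacna1f (-0.30) were lost with DESeq2 (adjusted p = 0.170 and 0.357).

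**Figure D4:**
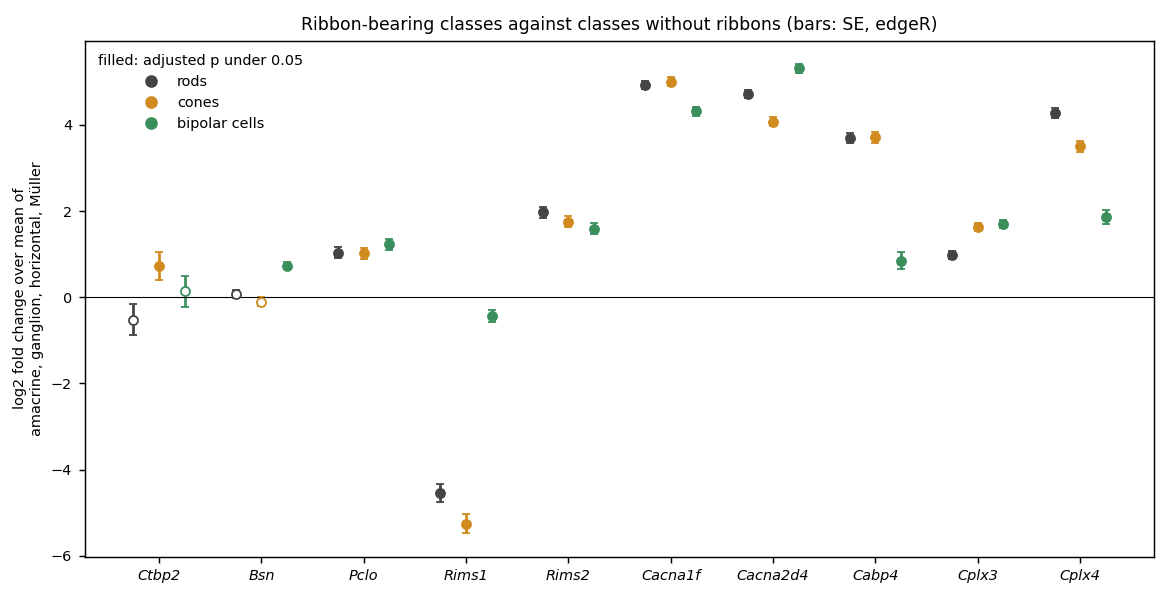
Log2 fold change of each gene in rods, cones and bipolar cells over the mean of amacrine, ganglion and horizontal cells and Müller glia; bars are standard errors from edgeR and filled points passed an adjusted p under 0.05. Cacna1f and Cacna2d4 lie between 4.08 and 5.31 in all 3 classes, and Rims1 at -4.55 and -5.25 in rods and cones.

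Other genes of release were counted from 3 lists. Of 22 genes for release at ribbon synapses, 14 higher and 6 lower passed in rods against the non-ribbon classes, beside 33.9% and 34.3% of all genes. In cones 14 higher and 4 lower passed, beside 32.3% and 31.4%, and in bipolar cells 16 and 2, beside 25.4% and 22.3%. The median log2 fold changes were 0.89, 1.04 and 0.76. The largest changes in rods were those of Erc1 (-4.39) and Rimbp2 (-4.12), which encode partners of RIM proteins, of Tulp1 (3.78), a photoreceptor gene needed for normal ribbon synapses, and of the channel subunit gene Cacnb2 (3.29). Rimbp2 was likewise lower in cones (-4.28), where Tulp1 (4.08), the glutamate transporter gene Slc17a7 (4.0) and the vesicle gene Sv2b (3.62) were higher. In bipolar cells Slc17a7 (2.84), Sv2b (2.68), the priming gene Unc13b (2.61) and the fusion ATPase gene Nsf (1.88) led.

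Of 22 genes of conventional active zones, 4 higher and 16 lower passed in rods, beside 33.9% and 34.3% of all genes. In cones 5 higher and 15 lower passed, beside 32.3% and 31.4%, and in bipolar cells 4 and 11, beside 25.4% and 22.3%. The medians were -1.07, -0.95 and -0.34. The synapsin genes Syn3 (-3.55) and Syn2 (-3.22) and the priming gene Unc13c (-3.36) were lower in rods, and the calcium sensor gene Doc2b was higher in rods (4.49) and cones (5.24). In cones Syn2 (-4.08), Unc13c (-4.30) and the vesicle gene Rph3a (-2.84) were lower. In bipolar cells Unc13c was higher (1.97), and the vesicle gene Sv2c (-2.76) was lower, as was Slc17a6 (-1.69), a marker that named ganglion cells. Of 17 other calcium channel subunits and channel regulators, 3 higher and 13 lower passed in rods, and 3 higher and 13 lower in cones. In bipolar cells 10 higher and 3 lower passed. The shares of all genes were those just given, and the medians were -2.58, -2.35 and 0.63. The pore subunit genes Cacna1d (-4.55 in rods, -4.77 in cones) and Cacna1a (-4.13 and -4.31) were lower in photoreceptors, as were Cacna2d1 (-3.87) and Cacna1b (-3.61) in rods and Cacna1g (-4.05) and Cacna1c (-3.90) in cones. The calcium-binding protein gene Cabp2 (3.34) and the channel subunit genes Cacna1h (2.27) and Cacna2d3 (1.87) were higher in bipolar cells. Cabp5 (5.20 in bipolar cells) was also a marker that named those clusters, so its value is a description only. Between the ages 0 genes of the 3 lists passed in any class.

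Between the ages no ribbon synapse gene passed in any class. By edgeR 0 of the 9 genes tested in rods, 10 in cones, 9 in bipolar cells, 10 in amacrine cells, 9 in ganglion cells, 6 in horizontal cells and 10 in Müller glia were called, and DESeq2 also called 0 in each. Over all genes, 0.0243% and 0.0243% were called higher and lower at 5 months in rods, 0.0258% and 0.0258% for cones, 0.0525% and 0.0175% for bipolar cells, 0.0196% and 0.0131% in amacrine cells, 0.0447% and 0.0298% in ganglion cells, 0.0415% and 0.0554% in horizontal cells and 0.0631% and 0.0315% in Müller glia. Few genes of any kind were therefore called with 2 libraries an age. At an unadjusted p under 0.05 there were 2 members each in amacrine cells (Ctbp2, Cplx4) and ganglion cells (Cabp4, Cplx4) and 0 in the other 5 classes. Over all genes the share at this threshold was 8.53% in amacrine cells, 6.73% in ganglion cells and 5.71% to 7.04% in the others. Ctbp2 in amacrine cells, with the limits given above, had 4.89 and 5.62 CPM at 5 months, against 1.85 and 1.80 CPM at 2.5 months (change of 1.5 on the log2 scale, SE 0.41, adjusted p = 0.480). In rods the 9 log2 fold changes lay between -0.19 (Rims2) and 0.25 (Rims1), with SEs of 0.14 and 0.25.

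Cplx3 had the largest age difference in cones among the members other than Ctbp2, with 188 and 195 CPM at 5 months, against 178 and 121 CPM at 2.5 months (change of 0.38 on the log2 scale, SE 0.22, adjusted p = 0.846). In bipolar cells it had 174 and 197 CPM at 5 months, against 151 and 138 CPM at 2.5 months (change of 0.35 on the log2 scale, SE 0.17, adjusted p = 0.757). In both classes each 5-month value exceeded each 2.5-month value, whereas in rods the ages overlapped. The same order was seen in amacrine cells, which have no ribbons, with 145 and 151 CPM at 5 months, against 123 and 109 CPM at 2.5 months (change of 0.34 on the log2 scale, SE 0.16, adjusted p = 0.587). Cplx4 in amacrine cells had 26.9 and 19.7 CPM at 5 months, against 49.6 and 32.7 CPM at 2.5 months (change of -0.81 on the log2 scale, SE 0.25, adjusted p = 0.494). In ganglion cells it had 11.2 and 8.56 CPM at 5 months, against 25.2 and 14.2 CPM at 2.5 months (change of -0.95 on the log2 scale, SE 0.32, adjusted p = 0.569), and Cabp4 had 7.39 and 5.39 CPM at 5 months, against 19.2 and 10.2 CPM at 2.5 months (change of -1.16 on the log2 scale, SE 0.37, adjusted p = 0.528). In these 3 comparisons of Cplx4 and Cabp4 each 5-month value lay below each 2.5-month value. The free rod RNA moved the same way: it was 9.79% and 6.41% at 5 months and 13.8% and 10.0% at 2.5 months of the rod level in amacrine cells and 4.34% and 2.97% at 5 months and 6.81% and 4.65% at 2.5 months in ganglion cells. The 18 genes of the free rod RNA list had median log2 fold changes of -0.47 and -0.57 in these classes, and their part in the result was not tested. As percent of the rod level, Cplx4 lay below the free rod RNA in every library of both classes. Cabp4 in ganglion cells lay below the free rod RNA at 5 months (3.40% and 1.93%) and above it at 2.5 months (7.84% and 5.06%). Cplx4 in amacrine cells passed without the second 2.5-month library (-1.10, adjusted p = 0.0201).

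The age effect itself was compared between classes, with library as a block. Of the 10 members tested between rods and cones and the 9 between rods and bipolar cells, 0 passed by edgeR and 0 by DESeq2. All genes were called at 0.175% and 0.111% and at 0.0543% and 0.00776%. At an unadjusted p under 0.05 there was 1 member each: Cplx3 between rods and cones (-0.38, SE 0.17, adjusted p = 0.507) and Cplx4 between rods and bipolar cells (0.37, SE 0.17, adjusted p = 0.559). Without the first 5-month library Cplx3 passed in both comparisons, at -0.76 (adjusted p = 0.00488) and -0.71 (adjusted p = 0.0488). Without the second 5-month library it was at -0.04 and 0.08, so single libraries decide these values. Over all genes 8.34% and 8.51% had an unadjusted p under 0.05, so 1 member in each comparison is near the share of all genes.

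**Figure D5:**
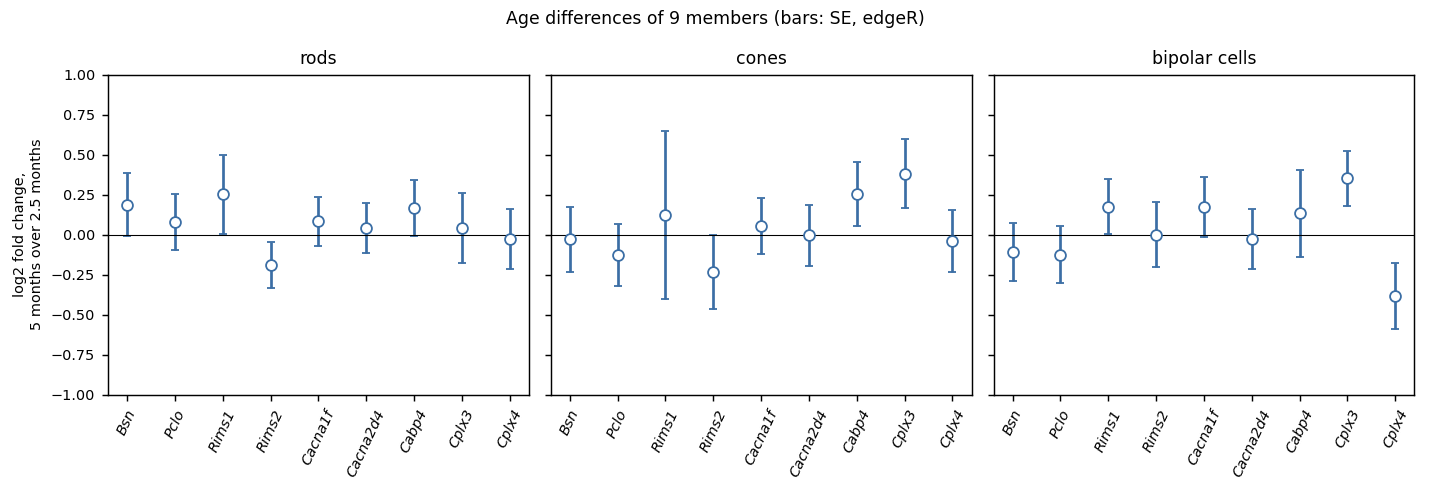
Log2 fold change of 9 genes (all but Ctbp2) between 5 and 2.5 months in rods, cones and bipolar cells, with standard errors from edgeR as bars; open points did not pass. The 27 values lie between -0.38 (Cplx4 in bipolar cells) and 0.38 (Cplx3 in cones).

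Over the 40 sums of 10 classes and 4 libraries, the genes outside the list whose log2(CPM + 1) was most like the mean standardised level of the members were Rapgef5 (Pearson r = 0.929), Dscaml1 (0.918), Pnrc1 (0.907), Rasgrf2 (0.905) and Pitpnm1 (0.901). Among the members this likeness, to a mean that includes them, was highest for Cacna2d4 (0.866), Rims2 (0.859) and Cacna1f (0.853), intermediate for Pclo (0.823), Cplx3 (0.784), Cplx4 (0.743) and Cabp4 (0.714), and lowest for Bsn (0.647) and Rims1 (-0.148). Sums of a class share cell identity and sums of a library share depth and free RNA, so these values describe the sums and are no test.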

How the data were processed

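Nuclear RNA of mouse retina was counted by 10x single-nucleus sequencing in 4 libraries, 2 of 5 months and 2 of 2.5 months. The deposited matrices hold raw UMI counts per gene and barcode. Per the file headers they were made with Cell Ranger 4.0.0 at 5 months and Cell Ranger 7.1.0 at 2.5 months, and the submitters' processing notes name mm10. The strand setting and whether intron reads were counted are not given in the sources used here.

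Barcodes under 300 genes or over 5% mitochondrial UMIs, 27 in all, were left out, and doublets called with Scrublet (scanpy 1.11.5) were removed. Nuclei were clustered by the Leiden method (leidenalg 0.10.2) on 2000 variable genes from which the 10 genes and the 3 synapse lists were left out, and clusters were named from fixed marker lists. In all, 3017 nuclei stayed unnamed. UMIs were summed per class and library for classes with at least 20 nuclei in every library. The sums were tested by quasi-likelihood in edgeR 4.0.16 under R 4.3.3 after filterByExpr and TMM scaling, with p adjusted over all genes tested. Class comparisons used library as a block. Age comparisons had 2 libraries against 2. The age fit in rods and the fit of rods against the non-ribbon classes were tested on simulated data, and the other steps were not. DESeq2 1.42.0, RLE scaling, no filter on low counts, other nuclei, other clusters and each library left out were alternatives. Library totals were 19608067 to 36320257 UMIs.

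The members and lists were chosen with earlier results of these data known. All 10 genes are described, and of each list at most the 4 genes with the largest absolute log2 fold change past an adjusted p of 0.05 are named per comparison. One gene that this rule would name is not reported here. Likeness names the 5 genes with the highest Pearson r among genes of at least 5 CPM on average.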

Additional observations from a re-analysis of the deposited data

How the results depend on the processing

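Under the alternatives 387 counts of called members stayed within 1.5 times the reported count, 7 were higher and 6 lower. The 387 include the age counts that were 0 and stayed 0, which say little of how stable the calls are. Set against the 3 neuron classes alone, 2 members were lower in rods and 2 in cones, and Bsn turned to -0.73 in rods and -0.0763 in bipolar cells. In bipolar cells against the non-ribbon classes 0 members were lower with DESeq2 and with no library block, and 0 to 1 with 1 library left out. Between rods and cones 1 to 2 members were lower with 1 library left out. Between rod and cone bipolar cells 2 were higher when the same share of doublet scores was removed from each library, and 2 were lower with DESeq2 and with no library block. Cplx4 in amacrine cells was the 1 member called lower at 5 months with no filter on low counts (adjusted p = 0.0344), and 0 to 1 were called with 1 library left out. The age effect had 0 to 1 members lower between rods and cones and 0 to 1 between rods and bipolar cells with 1 library left out, and there Cplx3 ran from -0.71 to 0.0764. Near 0, signs turned in rods minus cones. Pclo was -0.0459 at the finer clustering, -0.0492 in nuclei of at least 1000 UMIs, -0.0086 with no library block, -0.0508 with the same share of doublets removed and -0.0938 to 0.11 with 1 library left out. Cacna1f was 0.0261 with no filter, 0.0179 with doublets kept and -0.11 to 0.0201 with 1 library left out. Cabp4 was 0.0064 with DESeq2, 0.0909 with no filter, 0.0774 with doublets kept, 0.0116 with no library block and -0.0767 to 0.0454 with 1 library left out. The cause was not tested for any of these. Subtracting free rod RNA left Cabp4 at -7.29 CPM in bipolar cells.

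Donor numbers are shared by the ages, but same-numbered libraries deviated together with correlations of only -0.03 to 0.06, so the numbers do not pair them. With the donor number as a block 0 members were called in each of the 7 classes, while over all genes the calls in rods were 23 and 25 higher and lower, against 3 and 3 without it. Calls over all genes between the ages also moved with the tool and the libraries, with 16 and 8 in rods, 15 and 3 in cones and 19 and 12 in amacrine cells by DESeq2, against 3 and 3, 3 and 3 and 3 and 2 by edgeR, and 77 and 76, 54 and 27 and 148 and 94 with no filter. That filter setting also moved the median of all genes by -0.12 in cones against the non-ribbon classes. Between rod and cone bipolar cells DESeq2 called 826 and 1064 genes, against 1357 and 1599. With 2 libraries an age, and Ctbp2 at 27 UMIs in all rods, differences within the spread between libraries were not detectable.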

Other observations

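Some annotated genes that overlap the ribbon synapse genes on the other strand had counts of their own. Gm26954, inside Pclo, averaged 1209 CPM in rods, 590.0 CPM in cones, 189 CPM in bipolar cells and 54.5 CPM in amacrine cells (n = 4 libraries each). It therefore stood in the order rods, cones, bipolar cells, amacrine cells, while Pclo itself averaged 905, 849.6, 906 and 672 CPM in the same classes. Gpr152, opposite Cabp4, averaged 64.8 CPM in rods, 94.9 CPM in cones and 4.27 CPM in bipolar cells. These values were not tested between classes.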
